A study of Homo sapiens with 15 samples.

Results

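The desmosomal cadherins and plakophilins were followed in SCC13 cells, a cell line from a squamous cell carcinoma of the skin. The family was taken as 10 genes: the desmogleins DSG1, DSG2, DSG3 and DSG4, the desmocollins DSC1, DSC2 and DSC3, and the plakophilins PKP1, PKP2 and PKP3. Every probe, control probes aside, whose accession belonged to one of these genes was used. This gave 12 probes of 10 genes, among 50599 probes and 20503 named genes on the array. RNA was labelled with Cy3 and read on 15 Agilent arrays (SurePrint G3 Human 8x60K, 1 colour). SCC13-TLR4 cells carried a plasmid for TLR4 fused to GFP (pUNO-TLR4GFP) and SCC13-pUNO cells the control plasmid (pUNO). TLR4 is the receptor for bacterial lipopolysaccharide (LPS), and untransfected SCC13 cells were described in the study's methods as lacking it. Both lines were stable transfectants grown under blasticidin in DMEM with fetal calf serum, and the TLR4 line was a sorted fraction with the strongest GFP fluorescence. Each line is therefore 1 selected population, and what sets the lines apart may include the selection as well as TLR4. Cells were left untreated (4 arrays of SCC13-pUNO, 3 of SCC13-TLR4) or received 10 μg/ml ultrapure LPS for 24 h (4 arrays of each line). The replicates were parallel seedings of these lines, so a p-value measures the spread between arrays of such seedings. Where slide is not in the model, that spread includes any shift between the 2 slides the arrays were on.

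Desmosomes are the spot-like junctions that hold keratinocytes together against mechanical stress. Desmogleins and desmocollins span the membrane and bind those of the neighbouring cell, and plakophilins join their tails, with plakoglobin and desmoplakin, to the keratin filaments. In normal epidermis the isoforms follow the layers. DSG3 and DSC3 are strongest in the basal cells, DSG1, DSC1 and PKP1 belong to the differentiating upper layers, DSG4 is best known from the hair follicle, and DSG2, DSC2 and PKP2 are the isoforms shared with simple epithelia and heart.

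A level here is the log2 intensity minus that of the 75th percentile of the spots on the same array, so 0 marks this percentile. Intensities depend on the probe as well as on the RNA, and levels of different genes are not set against each other. A fall in RNA per cell and a fall in the number of cells that make it cannot be told apart. The 75th percentile lay between 192 and 420 intensity units, lowest on the LPS-treated SCC13-pUNO array of replicate 3. Between 47.1% and 56.2% of spots were well above background. The keratinocyte markers KRT5, KRT14, TP63, ITGA6 and COL17A1 were well above background on all 15 arrays. Of these, TP63 lay below the 75th percentile throughout (from -1.82 to -0.85), and COL17A1 ranged from -2.70 to 0.78. The simple-epithelium markers KRT8, KRT18, KRT19 and EPCAM were also well above background on all 15. Of the markers of other cell types, 4 of 5 fibroblast markers were so on 0 of 15 and COL1A1 on 6. PTPRC and CD14 (immune cells), CDH5 (endothelium) and PMEL (melanocytes) lay below the 75th percentile but were well above background on all 15, VWF on 14, PECAM1 on 10 and CD3E on 8, and TYR, MLANA and DCT on 4 or fewer. Their part in the values below was not tested. TLR4 was between 2.84 and 3.19 on the 7 SCC13-TLR4 arrays and between -6.40 and -3.80 on 7 of the 8 SCC13-pUNO arrays. The exception was the untreated SCC13-pUNO array numbered 2, here called the library labelled pUNO-2. It stood at 3.04, against its label, so the differences of the 6 tested genes that rest on it are given with and without it where the main model is used. The arrays were on 2 slides that both held all 4 groups, 8 arrays on the first and 7 on the second.

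Detection differed between the members. Such a mix is common on these arrays: of all 50599 probes, 19477 were well above background on all 15 arrays. It is not a trait of this family. For DSG2, DSG3, DSC2, PKP2 and PKP3 the probe was well above background on all 15 arrays, and for DSC3 the first probe was on 13 of 15. DSC1, DSG1 and PKP1, placed above in the upper epidermal layers, and DSG4, best known from the hair follicle, were so on fewer arrays. DSC1 and DSG4 were well above background on 0 of 15 arrays, and DSG1 on 7 of 15. PKP1 was read by a pair of probes for the same transcript, well above background on 6 and on 3 of 15 arrays. Both were so on only 2 of the 7 arrays where either was, so this gene is uncertain. The second DSC3 probe, which belongs to another DSC3 transcript, was detected on 1 of 15. Other genes of epidermal differentiation did not follow one pattern. CDSN, KRT1, TGM3 and ZNF750 were on 0 of 15 arrays, whereas KRT10, TGM1, SPRR1A, KLK5, KLK7 and SPINK5 were on all 15 and IVL on 14. Of the 12 genes of the cornified envelope list, 5 were on all 15 arrays and 1 on 0. SPRR1B was on 13 arrays, FLG on 4, SPRR3 on 2, and loricrin and SPRR2A on 1 each.

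DSG1, the desmoglein of the upper epidermis, was the one faint cadherin seen on several arrays. In untreated SCC13-pUNO cells it read -4.78, -4.98, -5.09 and -3.80, and only the last was well above background. In untreated SCC13-TLR4 cells it read -4.34, -4.10 and -3.94, and the last 2 of these 3 were. After LPS it read -5.09, -4.42, -3.52 and -5.97 in SCC13-pUNO cells, with 1 of 4 arrays well above background, and -3.47, -4.44, -4.01 and -4.16 in SCC13-TLR4 cells, with 3 of 4. It was thus detected on 5 of 7 SCC13-TLR4 arrays and on 2 of 8 SCC13-pUNO arrays (two-sided Fisher's exact test, p = 0.132), and the ranges of the lines overlapped. Detection also moved with the slide, with 1 of 8 arrays on slide 1 and 6 of 7 on slide 2 (two-sided Fisher's exact test, p = 0.0101). Its part in the split by line was not tested. Of the 14426 probes detected on 1 to 14 arrays, 75.3% were detected more often in SCC13-TLR4 cells and 56.1% more often on slide 2, so a higher share in SCC13-TLR4 cells is common among faint probes.

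**Figure D1:**
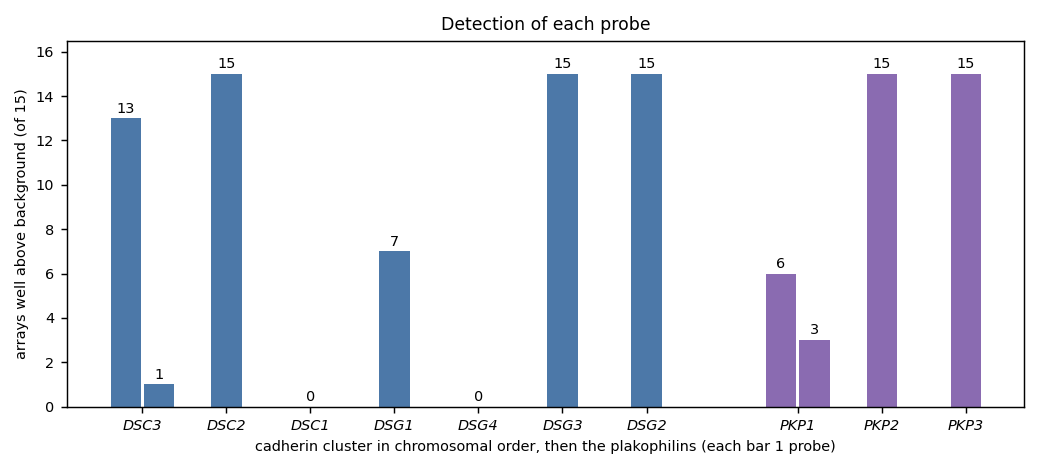
Number of the 15 arrays (y axis) on which each probe was well above background, with 1 bar per probe. The 7 cadherin genes stand in their order on the chromosome, followed by the 3 plakophilins. DSC3 (its first probe), DSC2, DSG3 and DSG2 reach 13 to 15 arrays, and DSC1, DSG1 and DSG4 between them reach 0, 7 and 0.

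The 7 cadherin genes lie together on chromosome 18. In the RefSeq order the detected genes DSC3 and DSC2 stood at one end and DSG3 and DSG2 at the other, with DSC1, DSG1 and DSG4 between them. The annotation places the long noncoding RNA genes DSCAS and DSG1-AS1 within the same stretch. The plakophilins lie apart, PKP1 on chromosome 1, PKP2 on chromosome 12 and PKP3 on chromosome 11. RefSeq promoter windows (250 bases before the transcription start to 50 bases after it, GRCh38.p14) were found for 7 of the 10 genes, 8 windows in all. DSG2, DSG3 and DSC1 are shown because they differ in the dinucleotide CG and in detection, with each CG in capitals.
DSG2 (chr18:31497927-31498226, + strand): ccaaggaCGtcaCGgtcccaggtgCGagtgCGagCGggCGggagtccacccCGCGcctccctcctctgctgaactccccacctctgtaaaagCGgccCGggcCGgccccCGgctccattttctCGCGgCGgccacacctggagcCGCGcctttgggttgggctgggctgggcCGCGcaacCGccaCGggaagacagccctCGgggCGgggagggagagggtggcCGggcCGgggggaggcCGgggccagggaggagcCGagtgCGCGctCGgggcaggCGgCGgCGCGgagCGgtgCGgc
DSG3 (chr18:31447491-31447790, + strand): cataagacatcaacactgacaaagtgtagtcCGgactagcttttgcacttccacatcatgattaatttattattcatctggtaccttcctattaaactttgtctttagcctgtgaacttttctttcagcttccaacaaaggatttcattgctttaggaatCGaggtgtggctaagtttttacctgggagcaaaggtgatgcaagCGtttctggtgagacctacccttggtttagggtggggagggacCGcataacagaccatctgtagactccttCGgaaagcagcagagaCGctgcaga
DSC1 (chr18:31162807-31163106, - strand): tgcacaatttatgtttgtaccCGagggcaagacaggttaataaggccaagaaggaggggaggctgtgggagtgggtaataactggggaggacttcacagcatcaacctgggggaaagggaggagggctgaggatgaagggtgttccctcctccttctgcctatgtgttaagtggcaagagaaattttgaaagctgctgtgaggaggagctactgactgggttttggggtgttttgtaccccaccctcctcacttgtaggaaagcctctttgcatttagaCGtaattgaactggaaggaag

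The DSG2 window held 36 CG dinucleotides, the DSG3 window 6 and the DSC1 window 2, where the median of all 35116 windows was 14. As the ratio of CG observed to CG expected from base composition, the windows read 0.83 for DSG2 and for DSC3, 0.70 and 0.55 for the pair of DSC2 windows and 0.57 for PKP1. The ratio was 0.41 for DSG3, 0.19 for DSG1 and 0.12 for DSC1. DSC1 and DSG1, the lowest by this measure, were detected on 0 and 7 arrays, and PKP1 on 6. DSG3 was detected on every array with a ratio below 0.6. The windows of all genes with a probe were split at 0.6. Of those at or above it, 75.5% belonged to a gene well above background on all 15 arrays, and 41.1% of those below. A gene with several windows is counted once for each. The letters CAGGTG, the core bound by Snail-type repressors, were searched on both strands. They occurred at 2 positions in the DSG2 window and at 1 in that of DSG1 and 1 of DSC2, against 20.6% of all windows with at least 1. The AP-1 letters TGANTCA (7.71% of all windows) occurred in 0 of the 8 windows. A match of letters is not a binding site.

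The 2 lines were compared first, untreated and under LPS, to see what TLR4 in these cells went with. Of the 10 genes, 6 had a probe that passed the filter, which asked that in at least 1 group all arrays be well above background. These were DSG2, DSG3, DSC2, DSC3, PKP2 and PKP3, and DSC3 passed through the SCC13-TLR4 groups, since 1 array of each SCC13-pUNO group was not well above background. With limma and Benjamini-Hochberg adjustment over 22685 probes, 0 of the 6 differed between the lines in untreated cells and 0 of the 6 with LPS, where 0% of all probes did. At an unadjusted limma p under 0.05 it was also 0 of 6 in both, against 2.5% and 2.72% of all probes. The 6 log2 differences had a median of 0.09 in untreated cells and 0.05 with LPS, and all probes -0.02 and -0.01. With all arrays, 0 of 6 members had ranges that did not overlap between the lines, where 3.73% of all probes did in untreated cells and 1.29% with LPS. Without the library labelled pUNO-2 the untreated ranges of 1 of 6, PKP2, did not overlap, as did those of 7.24% of all probes.

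**Figure D2:**
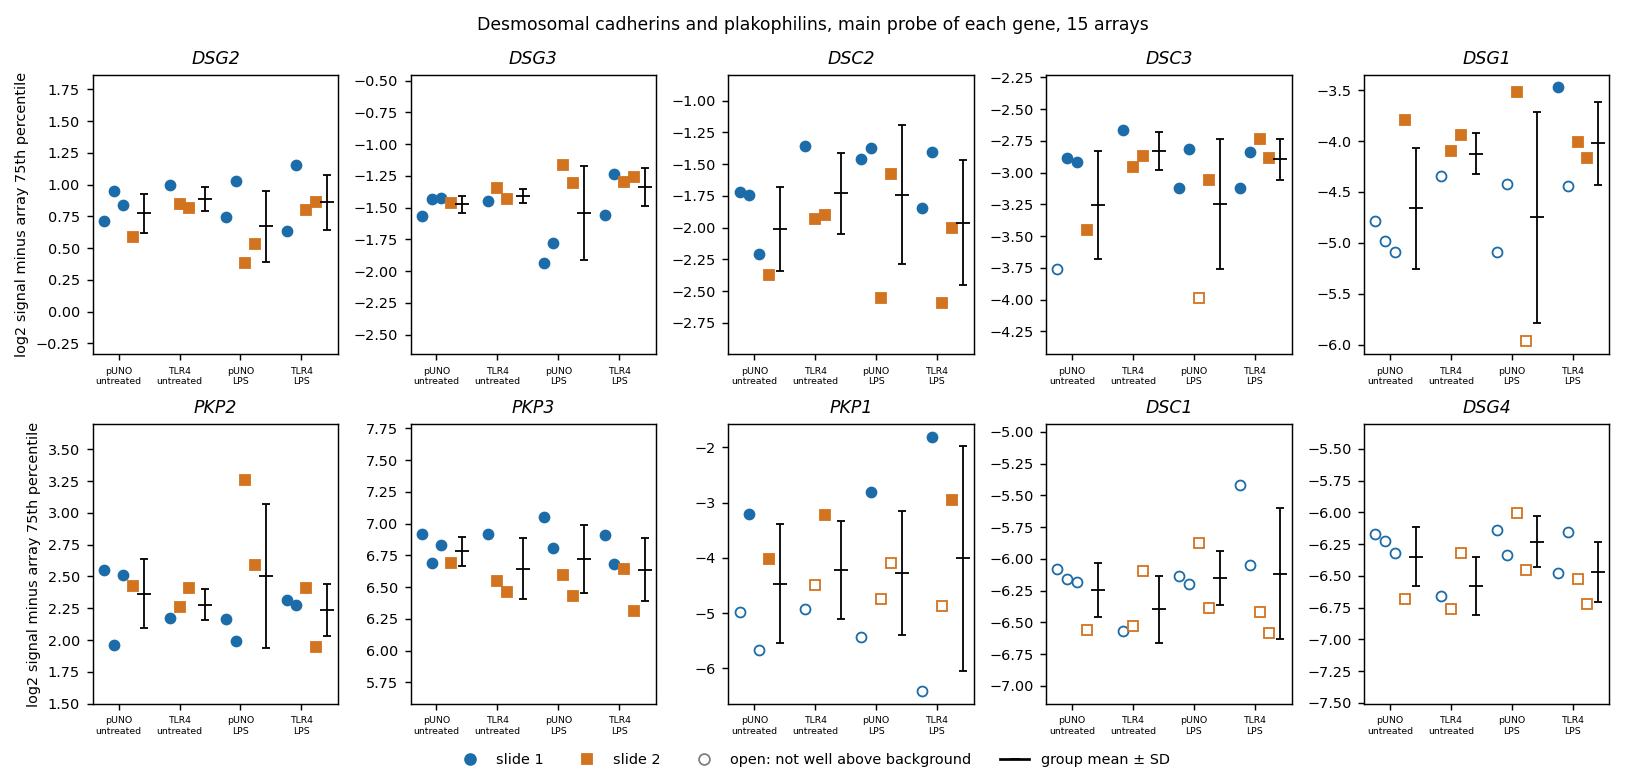
Log2 signal minus the 75th percentile of the array (y axis, scaled for each gene) of the main probe of all 10 genes by group, with circles for slide 1, squares for slide 2, open symbols where the probe was not well above background, and the mean ± SD beside them. The groups overlap for every gene, and DSC1 and DSG4 have open symbols alone.

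DSG2, the most widely expressed desmoglein, read 0.72, 0.95, 0.84 and 0.59 in untreated SCC13-pUNO cells and 0.99, 0.85 and 0.82 in untreated SCC13-TLR4 cells. After LPS the values were 0.75, 1.03, 0.38 and 0.54 in SCC13-pUNO cells and 0.63, 1.15, 0.80 and 0.86 in SCC13-TLR4 cells. The lines overlapped, with the lowest value on the LPS-treated SCC13-pUNO array of replicate 3. The log2 difference, SCC13-TLR4 minus SCC13-pUNO, was 0.11 (SE 0.16) in untreated cells and 0.19 (SE 0.15) with LPS. Without the library labelled pUNO-2 the untreated difference was 0.17 (SE 0.17).

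DSG3, the basal-layer desmoglein and the main antigen of pemphigus vulgaris, was the steadiest of the cadherins in untreated cells. It read -1.57, -1.43, -1.43 and -1.46 in untreated SCC13-pUNO cells and -1.45, -1.35 and -1.43 in the untreated SCC13-TLR4 group. With LPS it read -1.94, -1.78, -1.17 and -1.30 in SCC13-pUNO cells and -1.56, -1.24, -1.30 and -1.26 in SCC13-TLR4 cells. Both low values in LPS-treated SCC13-pUNO cells were on slide 1, and both high ones on slide 2. The log2 difference between the lines was 0.06 (SE 0.17) in untreated cells, or 0.08 (SE 0.18) without pUNO-2, and 0.21 (SE 0.15) with LPS. With LPS it was 0.46 on slide 1 and -0.04 on slide 2.

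DSC2, the desmocollin of simple and stratified epithelia, varied more. It read -1.72, -1.74, -2.21 and -2.37 in untreated SCC13-pUNO cells and -1.36, -1.93 and -1.90 in untreated SCC13-TLR4 cells. Under LPS it read -1.46, -1.38, -2.55 and -1.58 in SCC13-pUNO cells and -1.85, -1.41, -2.60 and -2.01 in SCC13-TLR4 cells. The single highest array was on slide 1 and the single lowest on slide 2, and all groups overlapped. The log2 difference between the lines was 0.28 (SE 0.32) in untreated cells, or 0.37 (SE 0.34) without pUNO-2, and -0.22 (SE 0.29) with LPS.

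DSC3, the basal-layer desmocollin, had the largest log2 difference of the 6 genes between the lines averaged over treatments. It entered the test only because it was well above background on all SCC13-TLR4 arrays, the groups where it read higher, so its difference is a description and no support is drawn from it. It read -3.76, -2.89, -2.92 and -3.46 in untreated SCC13-pUNO cells and -2.67, -2.96 and -2.87 in the untreated SCC13-TLR4 group. With LPS it read -3.12, -2.81, -3.99 and -3.06 in SCC13-pUNO cells and -3.12, -2.84, -2.74 and -2.89 in SCC13-TLR4 cells. The 7 SCC13-TLR4 arrays lay between -3.12 and -2.67 and the 8 SCC13-pUNO arrays between -3.99 and -2.81, so the lines overlapped. The lowest SCC13-pUNO values, -3.76 and -3.99, were the 2 arrays where the probe was not well above background. The log2 difference was 0.42 (SE 0.26) in untreated cells, or 0.54 (SE 0.28) without pUNO-2, and 0.35 (SE 0.24) with LPS. Averaged over both treatments it was 0.39 (SE 0.18, limma adjusted p = 0.996), and without pUNO-2 it was 0.45 (SE 0.18, limma adjusted p = 0.999), so it passed in neither. Without the LPS-treated SCC13-pUNO array of replicate 3 it was 0.26. By slide, the difference in untreated cells was 0.52 on slide 1 and 0.54 on slide 2, and with LPS it was -0.01 and 0.71.

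PKP2, the plakophilin of simple epithelia and heart, read 2.55, 1.96, 2.51 and 2.42 in untreated SCC13-pUNO cells and 2.17, 2.26 and 2.41 in untreated SCC13-TLR4 cells. After LPS it read 2.16, 1.99, 3.26 and 2.59 in SCC13-pUNO cells and 2.31, 2.28, 2.41 and 1.94 in SCC13-TLR4 cells. The value of 3.26, on the LPS-treated SCC13-pUNO array of replicate 3, was the highest of all 15. The log2 difference between the lines was -0.09 (SE 0.25) in untreated cells and -0.27 (SE 0.23) with LPS. The untreated overlap came from the library labelled pUNO-2, which read 1.96. Without it the untreated difference was -0.22 (SE 0.26, limma adjusted p = 1.00), with SCC13-TLR4 higher in 0 of 9 pairs of arrays. With LPS it was 0.22 on slide 1 and -0.75 on slide 2, which holds that array.

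PKP3, the plakophilin found through all layers of the epidermis, read 6.92, 6.69, 6.83 and 6.69 in untreated SCC13-pUNO cells and 6.92, 6.55 and 6.46 in the untreated SCC13-TLR4 group. With LPS it read 7.05, 6.80, 6.60 and 6.43 in SCC13-pUNO cells and 6.91, 6.68, 6.64 and 6.31 in SCC13-TLR4 cells. The lines overlapped within a narrow range. The log2 difference was -0.14 (SE 0.17) in untreated cells, or -0.17 (SE 0.19) without pUNO-2, and -0.08 (SE 0.16) with LPS.

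The intervals limit how large a difference could have gone unseen. Averaged over both treatments, 0 of 6 members differed between the lines, where 0.022% of all probes did, and 0 of 6 had an unadjusted p under 0.05 against 4.33% of all probes. The 95% interval for SCC13-TLR4 over SCC13-pUNO ran from 0.94-fold to 1.31-fold for DSG2, from 0.93-fold to 1.30-fold for DSG3 and from 0.78-fold to 1.10-fold for PKP3. It was wider for PKP2, from 0.68-fold to 1.15-fold, for DSC2, from 0.74-fold to 1.41-fold, and for DSC3, from 1.00-fold to 1.71-fold. A change of 2-fold lay outside the averaged interval of all 6 genes. Within 1 treatment the intervals were wider. In untreated cells they reached up to 1.98-fold with all arrays. Without the library labelled pUNO-2 they reached 2.17-fold for DSC2 and 2.21-fold for DSC3. Without the library labelled pUNO-2 the averaged log2 differences were 0.18 for DSG2, 0.14 for DSG3, 0.07 for DSC2, -0.24 for PKP2 and -0.13 for PKP3, and 0 of 6 passed. At an unadjusted limma p under 0.05 it was then 1 of 6, DSC3 (from 1.04-fold to 1.79-fold), against 4.47% of all probes. DSC3 passed the filter only through the SCC13-TLR4 groups, so no support is drawn from this count.

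**Figure D3:**
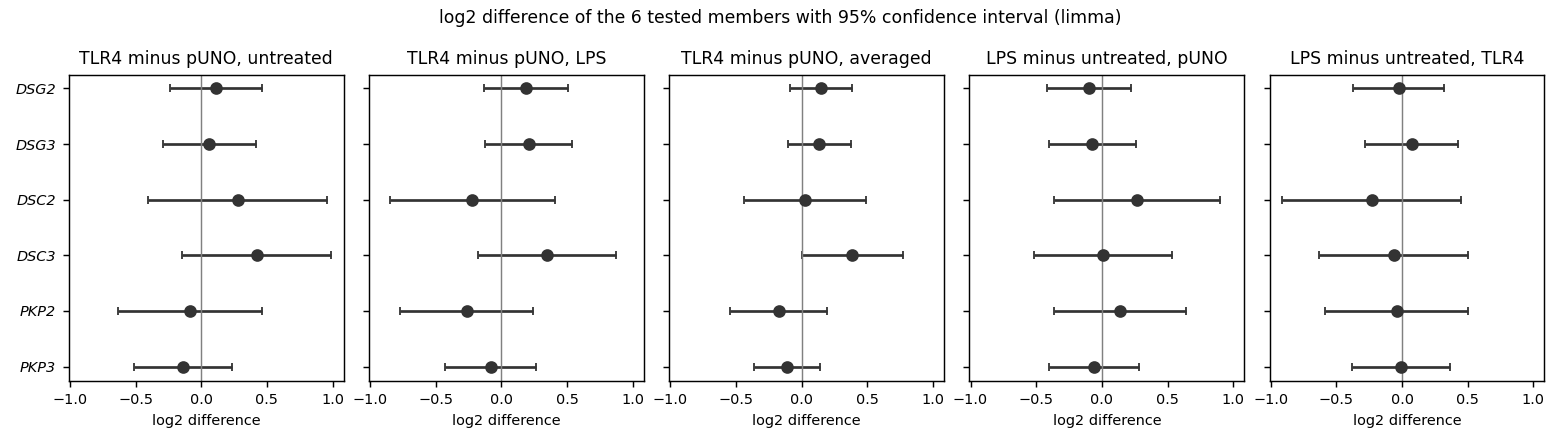
Log2 difference (x axis) of the 6 tested genes with its 95% interval from limma, for SCC13-TLR4 minus SCC13-pUNO in untreated cells, with LPS and averaged, and for LPS minus untreated in each line. Every interval includes 0, and that of DSC3 averaged over treatments begins at -0.00.

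LPS-treated cells were compared with untreated cells of the same line, to see the response to LPS without and with TLR4. In SCC13-pUNO cells 0 of 6 members changed, with log2 differences from -0.10 for DSG2 to 0.27 for DSC2, and in SCC13-TLR4 cells 0 of 6, from -0.23 for DSC2 to 0.07 for DSG3. Of all probes 0% changed in either line, and 2.48% and 1.33% had an unadjusted p under 0.05, where 0 of 6 members did. The medians of the 6 were -0.03 in both lines, and those of all probes -0.01 in both. No member had ranges that did not overlap, where 1.27% of probes did in SCC13-pUNO cells and 1.79% in SCC13-TLR4 cells. PKP2 was 0.14 (SE 0.23) higher with LPS in SCC13-pUNO cells, which without replicate 3 of the LPS-treated arrays became -0.11. Without pUNO-2 the differences in SCC13-pUNO cells were 0.0054 for PKP2, -0.04 for DSG2, -0.06 for DSG3, 0.36 (SE 0.32) for DSC2, 0.13 for DSC3 and -0.09 for PKP3, and 0 of 6 passed.

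DSC2 was the member whose LPS differences ran furthest apart between the lines. It stood 0.27 (SE 0.29) higher with LPS in SCC13-pUNO cells and 0.23 lower (log2 difference -0.23, SE 0.32) in SCC13-TLR4 cells. The difference of these responses, SCC13-TLR4 minus SCC13-pUNO, was -0.50 (SE 0.43, limma adjusted p = 1.00). In this comparison 0 of 6 members and 0% of all probes passed, and 0 of 6 had an unadjusted p under 0.05 against 1.32% of all probes. With slide in the model it was -0.75 (SE 0.30, unadjusted p = 0.0288, limma adjusted p = 1.00), 1 of 6 members with an unadjusted p under 0.05 against 2.01% of all probes. Without pUNO-2 the difference of the responses was -0.59 (SE 0.46, limma adjusted p = 1.00). On slide 1 DSC2 was 0.47 higher with LPS in SCC13-pUNO cells and at -0.27 in SCC13-TLR4 cells, and on slide 2 the values were 0.31 and -0.38. The other 5 genes had differences of responses between -0.18 for PKP2 and 0.15 for DSG3, and without pUNO-2 between -0.20 for DSC3 and 0.13 for DSG3.

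Slide took more of the variance than the 4 groups did for 5 of the 6 genes. The shares were 64.9% against 8.75% for PKP3, 38.0% against 9.92% for DSC2, 31.6% against 15.9% for DSG3, 24.1% against 18.2% for DSG2. For PKP2 slide took 12.9% and the groups slightly less. For DSC3 they were 2.70% against 27.4%. With the groups in the model, PKP3 was lower on slide 2 (log2 difference -0.32, SE 0.08, limma adjusted p = 0.00473), and so was DSC2 (-0.60, SE 0.15, limma adjusted p = 0.00636). PKP3 lay between 6.68 and 7.05 on slide 1 and between 6.31 and 6.69 on slide 2. Of all probes 51.8% differed between slides, 34.7% lower on slide 2, so 2 of 6 members is no more than the array as a whole. What the slides differ in beside hybridization was not tested. With slide in the model the averaged differences between the lines were 0.20 for DSG2 (SE 0.09, limma adjusted p = 0.467) and 0.43 for DSC3 (SE 0.18, limma adjusted p = 0.452). They were 0.09 for DSG3, 0.15 for DSC2, -0.23 for PKP2 and -0.04 for PKP3. At an unadjusted limma p under 0.05 these were 2 of 6, DSG2 and DSC3, against 10.5% of all probes. No support is drawn from DSC3 here, given how it passed the filter. In untreated cells DSC2 then stood at 0.53 (SE 0.23, unadjusted p = 0.0374, limma adjusted p = 0.895), 1 of 6 against 5.55% of all probes, and 0 of 6 genes passed in any comparison.

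Across the 15 arrays some members moved together regardless of the groups. All 15 pairs of the 6 genes were compared, and 4 had a permutation p under 0.05 after Benjamini-Hochberg adjustment over the 15 pairs. DSC3 followed DSG2 with Pearson's r = 0.75 (permutation test, p = 0.00107, adjusted 0.0106) and Spearman's rho = 0.79 (permutation test, p = 0.00073, adjusted 0.0109). It was r = 0.68 on slide 1 and 0.87 on slide 2, 0.71 with the group means taken off and 0.63 without the 2 arrays farthest from the median of DSG2. Without the LPS-treated SCC13-pUNO array of replicate 3 alone it was 0.61. DSC3 passed the filter only through the SCC13-TLR4 groups. Its lowest values, -3.76 and -3.99, were not well above background but entered as measured. Its pairs with DSG2 and PKP2 are therefore a description, and no support is drawn from them.

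PKP2 ran against DSG2, with r = -0.74 (permutation test, p = 0.00142, adjusted 0.0106) and rho = -0.74 (permutation test, p = 0.00234, adjusted 0.0131). It was -0.47 on slide 1, -0.87 on slide 2 and -0.69 without the 2 farthest arrays. Leaving out only the LPS-treated SCC13-pUNO array of replicate 3 gave -0.59. PKP3 ran against DSG3, with r = -0.71 (permutation test, p = 0.00217, adjusted 0.0108) and rho = -0.73 (permutation test, p = 0.00263, adjusted 0.0131). That pair read -0.71 on slide 1, -0.22 on slide 2 and -0.65 without the 2 farthest arrays. Leaving out only the LPS-treated SCC13-pUNO array of replicate 3 gave -0.72 for it. With the slide means taken off, PKP3 and DSG3 fell to r = -0.53. PKP2 against DSC3 had r = -0.73 (permutation test, p = 0.00299, adjusted 0.0112) but rho = -0.51 (permutation test, p = 0.0568, adjusted 0.213), and fell to r = -0.31 without the 2 farthest arrays, so it rests on those arrays. With the slide means taken off, r was 0.78 for DSC3 with DSG2, -0.70 for PKP2 with DSG2 and -0.73 for PKP2 with DSC3. The permutations ran over all 15 arrays without regard to slide, so their p-values do not set a shift between slides apart.

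**Figure D4:**
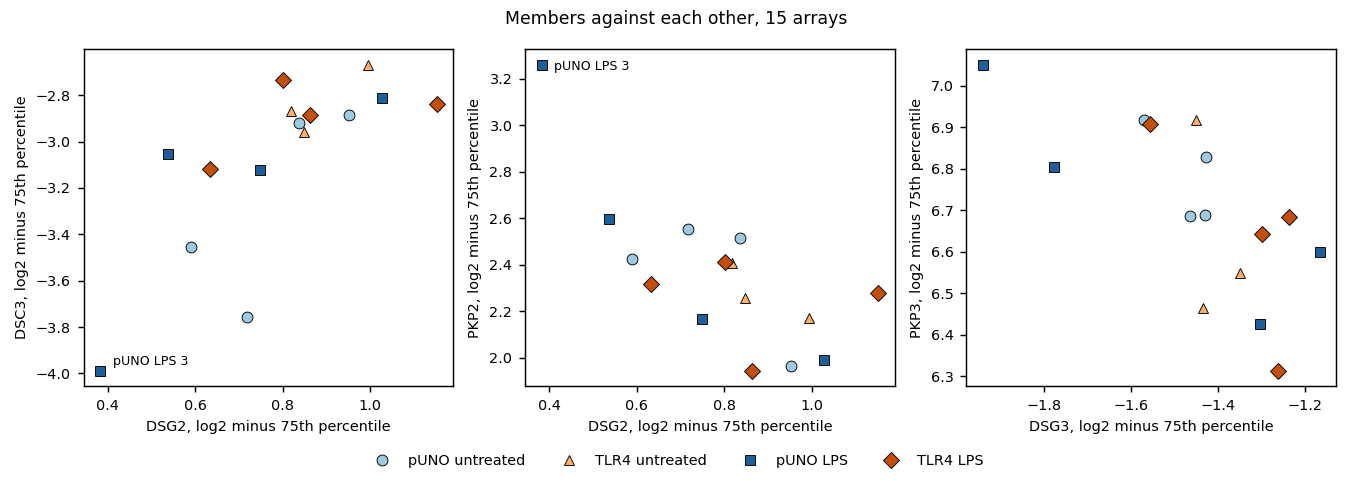
DSC3 and PKP2 against DSG2, and PKP3 against DSG3, 1 point per array, with both axes as log2 minus the 75th percentile and shapes for the 4 groups. The LPS-treated SCC13-pUNO array of replicate 3 lies at the end of the first 2 plots (DSG2 0.38, DSC3 -3.99, PKP2 3.26), and the groups are mixed along the trends.

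Such correlations were not rare on these arrays. A correlation with DSG2 at least as high as that of DSC3 was found for 1.67% of the other tested probes, and one with DSC3 at least as high as that of DSG2 for 0.375%. For PKP2 and DSG2 the shares were 1.53% and 2.08%, and for PKP3 and DSG3 they were 5.65% and 0.862%. The values share the array, its scaling and its slide. The log2 of the 75th percentile of the array had r = -0.70 with PKP2, 0.60 with DSC3 and 0.51 with DSG2 over the 15 arrays, and its part was not tested.

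The genes most like each member were taken over the 15 arrays with the slide means removed, among 12894 genes well above background on every array. PKP2 was closest to MNAT1 (r = 0.98), CNOT3 (0.97) and SLC25A29 (0.96), which without the LPS-treated SCC13-pUNO array of replicate 3 read 0.96, 0.95 and 0.91. PKP3 was closest to ARFGAP1 (0.92), BRCC3 (0.88) and WDR76 (0.87). DSG2 was closest to SETD5 (0.91), SH3BP5 (0.89) and APPL2 (0.88), and DSC2 to SPRY3 (0.85), MMACHC (0.79) and SNORA60 (0.78). DSG3 was closest to ERI2 (0.80), BCKDHB (0.79) and SNAR-F (0.78). None of these 15 was another desmosome gene of the lists.

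The rest of the desmosome was read in the same comparisons. Of 9 plaque proteins and partners 8 were tested: DSP (desmoplakin), JUP (plakoglobin), PKP4, PERP, PPL (periplakin), EVPL (envoplakin), CTNND1 and CTNNB1. In each of the 6 comparisons 0 of 8 passed and 0 of 8 had an unadjusted limma p under 0.05. Of all probes 0.022% passed averaged over treatments and 0% in the other comparisons. An unadjusted p under 0.05 was found for 1.32% to 4.33% of all probes. That 0 passed here and in the lists below is thus near the share of all probes. DSP differed between the lines by 0.05 (SE 0.08) and JUP by -0.08 (SE 0.13), averaged over treatments. The smallest p values of this list were for PPL at -0.20 (SE 0.11) and PERP, a tetraspan desmosome protein, at -0.15 (SE 0.09; exact permutation test, p = 0.0478). All 6 genes of the adherens junction list were tested, with CDH1 (E-cadherin) at -0.13 (SE 0.09) and CDH3 (P-cadherin) at 0.05 (SE 0.07) averaged over treatments, and 0 of 6 passed.

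Of the 10 keratins, the filaments that desmosomes hold, 8 were tested and 0 passed. KRT14, the basal keratin, stood apart in size. It was higher in SCC13-TLR4 cells by 0.88 (SE 0.38) untreated, with the library labelled pUNO-2 included. With LPS it was higher by 1.68 (SE 0.35, limma adjusted p = 0.458). There SCC13-TLR4 was higher in 16 of 16 pairs of arrays (two-sided exact permutation test, p = 0.0286, the smallest these arrays can give). Of all probes 1.29% had ranges that did not overlap between the lines with LPS. The other 2 KRT14 probes gave 0.72 and 0.38 untreated, and 1.73 and 0.71 with LPS. KRT17 stood at 0.49 (SE 0.22) with LPS and KRT5, the partner of KRT14, at 0.27 (SE 0.14), and neither passed. Of 12 genes of the cornified envelope 7 were tested and 0 passed, with KLK7, a protease that cuts desmosomal cadherins in the outer epidermis, at -0.32 (SE 0.12) averaged over treatments. SPRR1B stood 0.49 (SE 0.18) higher with LPS in SCC13-pUNO cells.

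Of the transcription factors that are known to act on desmosome genes, 12 of 16 were tested and 0 passed. TP63, the master factor of basal keratinocytes, was at 0.23 (SE 0.15) between the lines averaged over treatments, and SNAI1, a repressor of cadherins, at -0.10 (SE 0.08). GRHL1, an activator of DSG1, had 0.40 (SE 0.43) in untreated cells and -0.36 (SE 0.40) with LPS. All 7 kinases and sheddases of desmosomes were tested and 0 passed. Among them EGFR stood at 0.34 (SE 0.36) in untreated cells and at -0.11 (SE 0.33) with LPS. Averaged over treatments, MMP9 was at -0.18 (SE 0.13) and ADAM10 at -0.11 (SE 0.11).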

How the data were processed

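Each spot intensity came from Agilent Feature Extraction 10.7.3.1, run by the authors per the file headers, which subtracted background and detrended within the array. They deposited it on a linear scale with no normalization between arrays, and the deposited value table held the same intensities. Outlier-marked spots (300 to 646 per array) were left out, and spots of a probe were averaged after log2 and subtraction of the 75th percentile. All 4 groups were fitted together in limma 3.58.1 (R 4.3.3) on group means, with an adjusted p under 0.05 as the threshold. The study's methods name no test for the arrays. The main probe of a gene was its brightest tested probe, or its brightest where none was tested. From the other lists, the genes with the smallest p were named, and for each gene detected on all 15 arrays the 3 genes most like it. Members and lists were chosen with earlier results of these data known. Symbols came from accessions through RefSeq, which named 28174 of 50599 probes. Normexp used median spot signals. The model was tested on simulated data. Correlations used 100000 permutations. Python 3.11.15 and matplotlib 3.10.9 were used. Precision is limited by how many arrays there are.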

Additional observations from a re-analysis of the deposited data

How the results depend on the processing

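In all 6 comparisons 0 members passed in the main model and under every alternative that gave a value: normexp, quantile normalization, no filter (10 genes tested), a filter on all 15 arrays (5 genes), outlier spots kept, slide as a factor, array weights, trend and robust moderation, mean of a gene's probes, only the groups compared, each slide alone, each of the 15 arrays left out, and exact permutation tests. The lowest limma adjusted p of any member under any of these was 0.112. The permutation tests counted here used all 15 arrays. Without the library labelled pUNO-2, DSC3 averaged between the lines had p = 0.0357 (two-sided exact permutation test, unadjusted). Given how DSC3 passed the filter, no support is drawn from that value. Of 628 recomputed log2 differences of named members 607 kept their sign. No value that changed sign had passed a test, and the cause was not tested. With slide as a factor, DSG3 between the lines untreated became -0.034, and -0.0041 when the library labelled pUNO-2 was left out too. That last setting gave -0.033 for PKP2 with LPS in SCC13-pUNO cells. DSC2 averaged between the lines became -0.025 with normexp, -0.016 with quantile normalization and -0.11 with array weights. PKP3 with LPS between the lines became 0.015 with normexp. On slide 1 alone PKP3 untreated between the lines was 0.10, DSC3 with LPS -0.012, PKP2 with LPS 0.22, PKP2 averaged 0.022, and PKP2 after LPS in SCC13-pUNO cells -0.27. On slide 2 alone DSG3 with LPS was -0.045. With 1 array left out, DSC2 averaged ran from -0.11 to 0.13, PKP3 with LPS from -0.18 to 0.028, and PKP2 after LPS in SCC13-pUNO cells from -0.11 to 0.31. Over all probes, 0 calls between the lines became 7 untreated and 10 with LPS, and 5 averaged became 23, once the library labelled pUNO-2 was left out. Other settings gave up to 360, on slide 1 alone, which holds 1 untreated SCC13-TLR4 array, assumed to vary like the others.

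With the replicate number as a block, 0 members passed in every comparison, and DSC3 averaged between the lines was 0.39 (SE 0.19). The numbers do not pair the arrays: arrays of the same number on different slides deviated in opposite directions (r from -0.54 to -0.19), and arrays on the same slide together whether or not they shared a number (r from 0.15 to 0.68). A faint probe such as those of DSG1 and PKP1 gives no fold here.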
